A study of Mus musculus with 2 samples.

Results

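The vascular endothelial growth factor (VEGF) system was followed here through its 4 ligands Vegfa, Vegfb, Vegfc and Pgf, its 3 receptor tyrosine kinases Kdr, Flt1 and Flt4, and the neuropilin co-receptors Nrp1 and Nrp2. These 9 genes were chosen by name, as members of 1 signalling system, out of the 32285 genes in the deposited matrices of mouse aortic single-cell RNA-seq. All 9 were measured, and the mean level of each over both libraries reached 5 CPM in endothelial cells. CPM is the number of UMIs of a gene per 1000000 UMIs of the same cells, a UMI (unique molecular identifier) being the tag of 1 captured RNA molecule.

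VEGF ligands are secreted dimers that bind receptor tyrosine kinases on endothelial cells and drive their proliferation, migration and permeability. Kdr (VEGFR2) carries most of the angiogenic signal of Vegfa, Flt1 (VEGFR1) binds Vegfa, Vegfb and Pgf tightly with weak kinase activity and also exists as a soluble trap, and Flt4 (VEGFR3) binds Vegfc and is the receptor through which lymphatic vessels grow. Nrp1 and Nrp2 bind VEGFs and class 3 semaphorins and present them to VEGF receptors and plexins.

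Both groups were ApoE-/- mice on a C57BL/6 background fed a Western diet, a model of atherosclerosis. The WT-ApoE group carried no further named deletion, and the EC-iCD45KO-ApoE group lacked, after induction with tamoxifen, the tyrosine phosphatase CD45 of leukocytes, encoded by Ptprc, in endothelial cells (EC). The sources used here do not give the Cre driver, whether the control mice carried the floxed allele or received tamoxifen, the number of mice pooled, or their age and sex. Aortas were digested and enriched with CD31 beads, and the question of the series was how endothelial CD45 bears on the transition of endothelial to mesenchymal cells. With 1 library per group, differences between groups have no replicate check, no p-value is given, and genotype cannot be told apart from preparation.

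The WT-ApoE library held 39849 barcodes and 92058043 UMIs, and the EC-iCD45KO-ApoE library 30278 barcodes and 88967918 UMIs, with medians of 1548 and 1405 UMIs per barcode. The libraries shared 340 barcodes. After filtering and removal of likely doublets, 4006 and 4483 cells clustered as EC-like, named from 12 markers such as Pecam1 and Cdh5, and 269 and 225 as lymphatic EC-like. The summed level of the 12 endothelial markers was 3845 and 4428 CPM in EC-like cells, against 94.5 and 117 CPM in macrophage-like cells. Ptprc, the deleted gene, stood at 305 CPM in EC-like cells of WT-ApoE and 121 CPM in those of EC-iCD45KO-ApoE, but it was also lower in the second library in macrophage-like cells, at 447 and 244 CPM. RNA of other cells was present in EC-like cells: the summed macrophage markers were 2192 and 3106 CPM and higher in EC-iCD45KO-ApoE for 7 of 7, whereas the B cell markers were 777 and 65.2 CPM and the T and NK cell markers 256 and 38.1 CPM. The part of such RNA in the differences between groups given below was not tested.

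Kdr, Flt1 and Vegfc had their highest levels in endothelial cells, whereas Vegfa was highest in monocyte-like cells. The sequences upstream of these 4 genes are shown for that contrast, as 250 bases before the first RefSeq transcription start (GRCm38.p6), 5′ to 3′ on the strand of the gene, in lower case with each GGAA or its reverse complement TTCC in capitals. GGAA is the core of sites bound by ETS factors, a family that includes the endothelial regulators Erg and Fli1. The windows lie at chr5:75978456-75978705 for Kdr, chr5:147726012-147726261 for Flt1, chr8:54077282-54077531 for Vegfc and chr17:46032378-46032627 for Vegfa.
Kdr: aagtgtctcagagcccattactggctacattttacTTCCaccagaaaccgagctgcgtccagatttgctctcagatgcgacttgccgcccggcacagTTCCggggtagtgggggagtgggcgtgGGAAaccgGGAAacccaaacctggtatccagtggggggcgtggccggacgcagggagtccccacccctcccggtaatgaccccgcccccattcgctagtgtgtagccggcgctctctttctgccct
Flt1: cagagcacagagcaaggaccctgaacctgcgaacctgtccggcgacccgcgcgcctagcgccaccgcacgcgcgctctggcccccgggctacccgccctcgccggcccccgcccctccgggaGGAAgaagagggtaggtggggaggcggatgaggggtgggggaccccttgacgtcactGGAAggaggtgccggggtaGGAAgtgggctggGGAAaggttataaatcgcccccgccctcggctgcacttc
Vegfc: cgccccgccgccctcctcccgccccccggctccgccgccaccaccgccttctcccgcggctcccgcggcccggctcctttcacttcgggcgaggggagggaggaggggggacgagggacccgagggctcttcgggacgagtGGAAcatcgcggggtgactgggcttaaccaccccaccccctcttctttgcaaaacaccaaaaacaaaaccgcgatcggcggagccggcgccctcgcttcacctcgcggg
Vegfa: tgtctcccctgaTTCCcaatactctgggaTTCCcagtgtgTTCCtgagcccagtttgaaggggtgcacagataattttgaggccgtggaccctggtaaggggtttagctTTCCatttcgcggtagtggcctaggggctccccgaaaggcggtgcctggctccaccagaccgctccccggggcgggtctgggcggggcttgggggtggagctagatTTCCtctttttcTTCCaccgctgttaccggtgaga
The Kdr and Flt1 windows each held 4 matches to GGAA, the Vegfc window 1 and the Vegfa window 6, counting both strands and allowing overlaps. Among all 32851 RefSeq windows of 250 bases, 93.4% held at least 1 match and 33.4% held 4 or more, so matches of this number are frequent in promoters in general. The hypoxia response core ACGTG, searched on both strands, was found in 1 of the 11 windows of the 9 genes, at the internal start of Vegfa, and in 16.6% of all windows. Neither Pgf window held GGAA. A match to such short motifs describes the letters only.

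In GENCODE M21 on GRCm38 the genes lie on 7 chromosomes. Kdr (ENSMUSG00000062960) spans chr5:75932827-75978458 and Flt1 (ENSMUSG00000029648) chr5:147561604-147726011, both on the minus strand. Flt4 (ENSMUSG00000020357) spans chr11:49609263-49652739, Nrp1 (ENSMUSG00000025810) chr8:128358604-128503363 and Nrp2 (ENSMUSG00000025969) chr1:62703285-62818695, all on the plus strand. Of the ligands, Vegfa (ENSMUSG00000023951) spans chr17:46016993-46032369, Vegfb (ENSMUSG00000024962) chr19:6982473-6987651 and Pgf (ENSMUSG00000004791) chr12:85166635-85177790 on the minus strand, and Vegfc (ENSMUSG00000031520) chr8:54077606-54187096 on the plus strand. Nrp2 overlaps 1 other annotated gene of the matrices, Gm29083, on the opposite strand, and the other 8 overlap none. Counts sum all isoforms, so membrane and soluble Flt1 cannot be told apart.

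Among the receptors, Kdr was high in blood and lymphatic endothelium alike, Flt1 was highest in blood endothelium and Flt4 in lymphatic endothelium. Kdr stood at 190.0 CPM (95% interval 181 to 199.5, counting error only, as for all intervals here) in EC-like cells of WT-ApoE and at 256 CPM (247 to 266) in those of EC-iCD45KO-ApoE. Lymphatic EC-like cells had intervals that overlapped those of EC-like cells, with 226 CPM (188 to 270.3) and 254 CPM (214 to 299). Outside the endothelium Kdr was low, and B-like cells, which should lack it, gave a background of 2.93 and 1.10 CPM.

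Flt1 separated the 2 kinds of endothelium. It reached 672 CPM (655 to 690.0) and 824 CPM (807 to 841) in EC-like cells but only 63.6 CPM (44.0 to 88.8) and 99.0 CPM (74.5 to 129) in lymphatic EC-like cells. Within a library its EC-like level was 10.6-fold the lymphatic level in WT-ApoE and 8.33-fold in EC-iCD45KO-ApoE, and the intervals did not overlap. B-like cells gave 4.81 and 9.87 CPM. Flt4 had the opposite order, at 17.6 CPM (14.9 to 20.7) and 24.1 CPM (21.3 to 27.2) in EC-like cells and at 170.1 CPM (137 to 209) and 279 CPM (237 to 326) in lymphatic EC-like cells. Lymphatic EC-like cells held 0.626% and 0.671% of all UMIs of the 2 libraries but 91 of 337 and 155 of 507 Flt4 UMIs. In the 12 other classes Flt4 was at or below 2.96 CPM in both libraries.

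The neuropilins were spread over more cell types. Nrp1, the co-receptor that pairs with Kdr, stood at 339.7 CPM (327 to 352) and 419 CPM (407 to 431) in EC-like cells, and next came fibroblast-like cells with 176 CPM (163 to 189.6) and 154 CPM (145 to 164) and macrophage-like cells with 117 CPM (110.2 to 125) and 144 CPM (139 to 148). Lymphatic EC-like cells were far lower, at 52.4 and 52.2 CPM. Nrp2, the co-receptor known from veins and lymphatics, was at 126 CPM (118 to 134) and 168 CPM (160.5 to 176) in EC-like cells and at 196 CPM (161 to 238) and 176 CPM (143 to 215) in lymphatic EC-like cells. Macrophage-like cells had 115 CPM (108 to 123) and 114 CPM (110.0 to 118), and Schwann-like cells, with 27 and 84 UMIs, 125 CPM (82.6 to 182) and 83.1 CPM (66.3 to 103). The Schwann-like class differed in make-up between the libraries. Its summed plasma cell markers stood at 3811 and 224 CPM and its kidney tubule markers at 1272 and 210 CPM. The part of this in its Nrp2 levels, and in its Vegfb levels given below, was not tested. Macrophage markers were present in EC-like cells, as given above, and the part of macrophage RNA in the EC-like levels of Nrp1 and Nrp2 was not tested.

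Most UMIs of Vegfa, Vegfb and Pgf lay outside EC-like cells, and most of those of Vegfc within them. Vegfa, the main angiogenic ligand, was highest in monocyte-like cells, at 83.4 CPM (74.0 to 93.7) and 128 CPM (121 to 135), against 15.9 CPM (13.3 to 18.8) and 26.4 CPM (23.4 to 29.6) in EC-like cells. The monocyte-like class was led by Chil3, Apoc2 and Arg1. Its 7 macrophage markers summed to 7354 and 6875 CPM and its 5 monocyte markers to 2126 and 1283 CPM, so it may hold macrophages as well. Neutrophil-like cells had 25.4 CPM (15.3 to 39.6) in WT-ApoE and 68.1 CPM (57.1 to 80.6) in EC-iCD45KO-ApoE. Monocyte-like cells held 25.1% of all Vegfa UMIs in WT-ApoE and 44.8% in EC-iCD45KO-ApoE, and 4.01% and 12.6% of all UMIs. Vegfb, a ligand of Flt1, was more even: lymphatic EC-like cells had 74.8 and 70.2 CPM, Schwann-like cells 78.9 and 46.5 CPM, smooth muscle (SMC)-like cells 58.4 and 55.4 CPM, and EC-like cells 23.2 CPM (20.1 to 26.7) and 20.4 CPM (17.8 to 23.3). The intervals of lymphatic EC-like, SMC-like and Schwann-like cells overlapped in the order of levels in both libraries.

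Vegfc, the ligand of Flt4, was an endothelial transcript in these cells, at 59.8 CPM (54.7 to 65.3) and 43.9 CPM (40.0 to 48.1) in EC-like cells. Fibroblast-like cells had 16.3 and 11.4 CPM, erythroid-like cells 1 and 8 UMIs (2.29 and 23.7 CPM), and lymphatic EC-like cells, which had the most Flt4, had 3 and 2 Vegfc UMIs in all. EC-like cells held 57.8% and 63.2% of the Vegfc UMIs, 66.7% and 74.4% of those of Kdr and 73.1% and 77.3% of those of Flt1, and 9.88% and 12.9% of all UMIs. Pgf, whose only receptor tyrosine kinase is Flt1, was at 5.69 CPM (4.19 to 7.54) in EC-like cells of WT-ApoE and at 32.2 CPM (28.9 to 35.8) in those of EC-iCD45KO-ApoE. Lymphatic EC-like cells had 29.9 and 32.4 CPM and SMC-like cells 11.8 and 21.4 CPM. EC-like cells held 16.8% of the Pgf UMIs in WT-ApoE and 35.0% in EC-iCD45KO-ApoE, where they were the largest of the named sources, and SMC-like cells 31.6% and 27.5%.

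**Figure D1:**
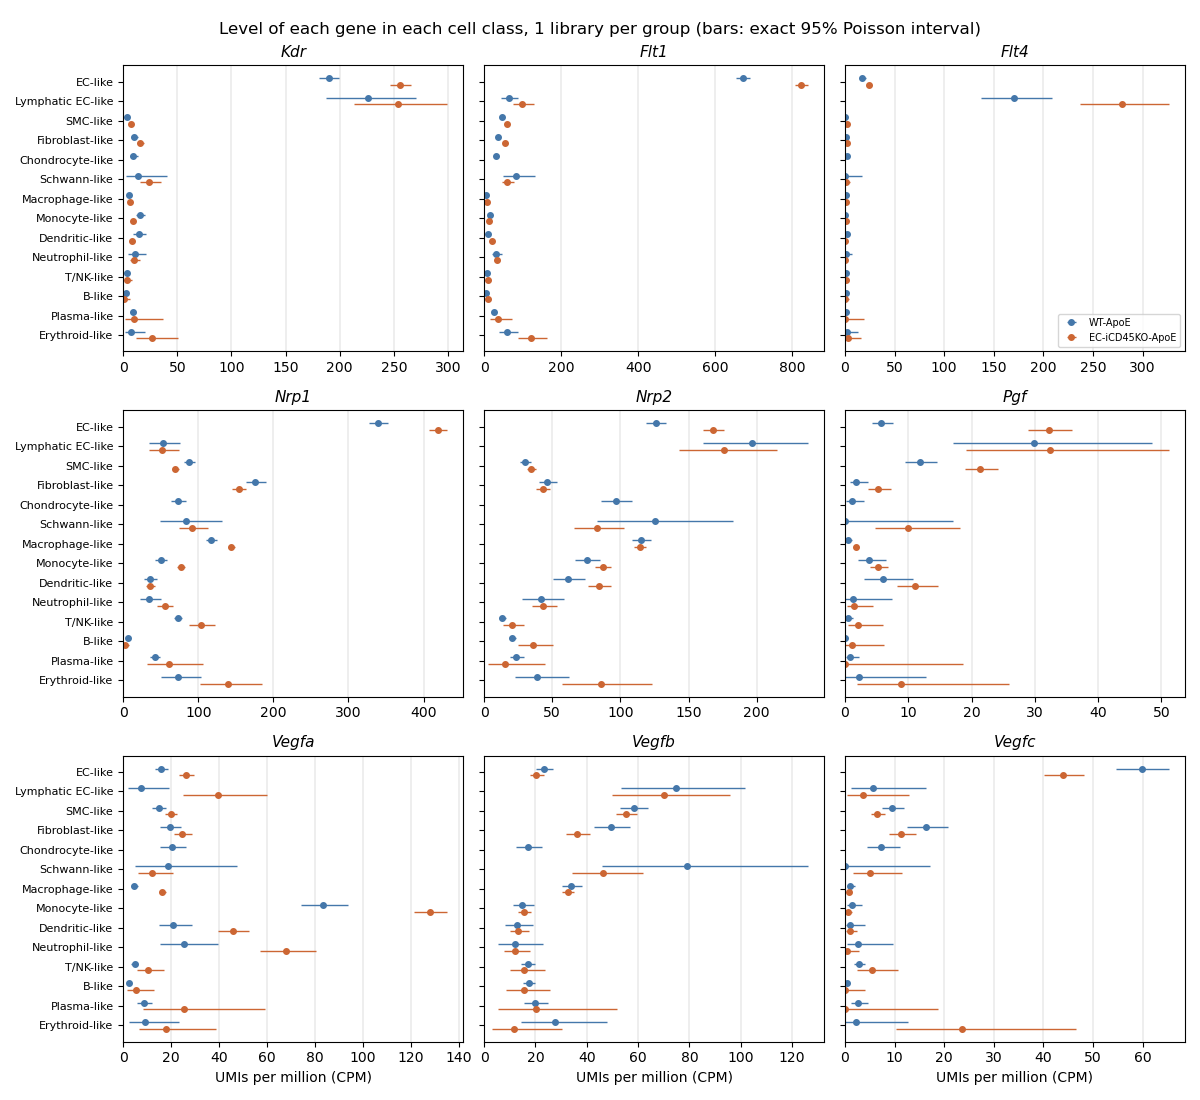
Level of each of the 9 genes (CPM, linear axes that differ between panels) in the named cell classes with at least 50 cells, in WT-ApoE and EC-iCD45KO-ApoE, 1 library each; points are levels and lines exact 95% Poisson intervals. Kdr is high in EC-like and lymphatic EC-like cells, Flt1 in EC-like cells, Flt4 in lymphatic EC-like cells (170.1 and 279 CPM) and Vegfa in monocyte-like cells (83.4 and 128 CPM).

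EC-like cells fell into 8 subtypes when clustered again on endothelial genes without the 9 genes and their pathway genes. S2 was capillary EC-like, led by Timp4 and Gpihbp1 (524 and 548 cells), and S1 was a shallower capillary EC-like group with Car7 and Rbp7 (798 and 1126 cells) whose leading genes also included the immune genes Ighg2b and Ccl5. S5 was arterial EC-like (462 and 375 cells): Klk10 was among its 10 leading genes, and Gja5 and Bmx led among endothelial-enriched genes. Those 10 also held the fibroblast marker Pi16, and the summed fibroblast markers stood at 1102 and 1294 CPM in S5, against 120.4 and 113 CPM in S2. S4 was venous EC-like with Gpr1 and Adarb2 (481 and 404 cells), led by the immunoglobulin gene Ighg1. S6 was led by Ccl21a and Glycam1 (149 and 201 cells) and S7 by Nts, Prnd and Igfbp3 (80 and 212 cells), and both were nearest to the venous markers. Neither is treated as venous, although the venous markers Ackr1 and Selp were among the leading endothelial genes of S6, and Sele among the 10 leading genes of S7. S4, like S6, had no venous marker among its 10 leading genes. The summed venous markers stood at 2573 and 3211 CPM in S4 and at 2504 and 3360 CPM in S6. S6 is not called venous because of its make-up, given next. The cluster led by Nts and Prnd was nearest to the arterial markers with a stricter and with a looser cell filter, and to the venous markers with finer clusters. The make-up of S6 differed between the libraries: the summed lymphatic markers, which include Ccl21a, stood at 12141 CPM in WT-ApoE and 229 CPM in EC-iCD45KO-ApoE, and the fibroblast markers at 1633 and 536 CPM, so S6 is not compared between them. S0 and S3 stayed unnamed, with medians of 867 and 999 UMIs per cell. These names were rebuilt from markers, and the subtypes are groups of cells of 1 library each.

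Kdr was highest in capillary S2, but not in the other capillary group S1, and low in arterial S5. It reached 465 CPM (433 to 499) in S2 of WT-ApoE and 588 CPM (556 to 621) in S2 of EC-iCD45KO-ApoE. In arterial S5 it stood at 23.8 CPM and 35.8 CPM, the log2 ratio of S5 to the other EC-like cells being -3.27 (-3.77 to -2.80) and -3.03 (-3.45 to -2.64). S7 followed S2 with 411 and 383 CPM, an order that the intervals separated in EC-iCD45KO-ApoE and not in WT-ApoE, and S1 (192 and 186 CPM) and S4 (154 and 170.3 CPM) overlapped. Flt1 had the same summit, 1358 CPM (1302 to 1416) and 1602 CPM (1549 to 1656) in S2, then 1041 and 1028 CPM in S7, 744 and 827 CPM in S4 and 624 and 647 CPM in S1, and all of these neighbours were separated in both libraries. Unlike Kdr it was still at 377 and 474 CPM in arterial S5.

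The neuropilins peaked in different subtypes. Nrp1 peaked in S2 at 745 CPM (703 to 788) and 923 CPM (883 to 964), with 464 and 402 CPM in S7, 299 and 336 CPM in the other capillary group S1, and 249 and 345 CPM in S4. Nrp2 peaked in S4, named venous EC-like, at 264 CPM (238 to 292) and 306 CPM (276 to 337). Capillary S2 had 172 and 239 CPM, S7 174 and 169.7 CPM and S6, with venous markers near those of S4, 121 and 97.5 CPM. The summed capillary markers of S4 stood at 14587 and 16827 CPM, above the 13293 and 12130 CPM of S1, so S4 was not purely venous by its markers. Nrp2 was lowest in arterial S5, at 18.8 and 34.4 CPM, with a log2 ratio of S5 to the other EC-like cells of -3.01 (-3.58 to -2.48) and -2.46 (-2.89 to -2.06). Flt4 was low throughout, at most 29.5 and 46.1 CPM in S2.

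Vegfa and Vegfc had the opposite arrangement and peaked in the arterial subtype. Vegfc stood at 125 CPM (108 to 144) and 134 CPM (116 to 154) in S5, against 59.1 and 54.7 CPM in S4, the next subtype. Vegfa stood at 38.8 CPM (29.7 to 49.7) and 72.2 CPM (59.2 to 87.3) in S5, and at 9.22 and 9.31 CPM in S2. The Vegfa intervals of S5 and of unnamed S3 overlapped in both libraries. Arterial EC-like cells thus had the highest Vegfa and Vegfc of the EC-like subtypes in both libraries and the lowest Nrp2, while Kdr was lowest in unnamed S3 of WT-ApoE (17.5 CPM) and in S5 of EC-iCD45KO-ApoE. S3, whose nearest markers were arterial, also had low Kdr in EC-iCD45KO-ApoE, at 38.8 CPM. Vegfb varied little, from 14.7 to 34.2 CPM in WT-ApoE and from 11.3 to 25.8 CPM in EC-iCD45KO-ApoE.

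**Figure D2:**
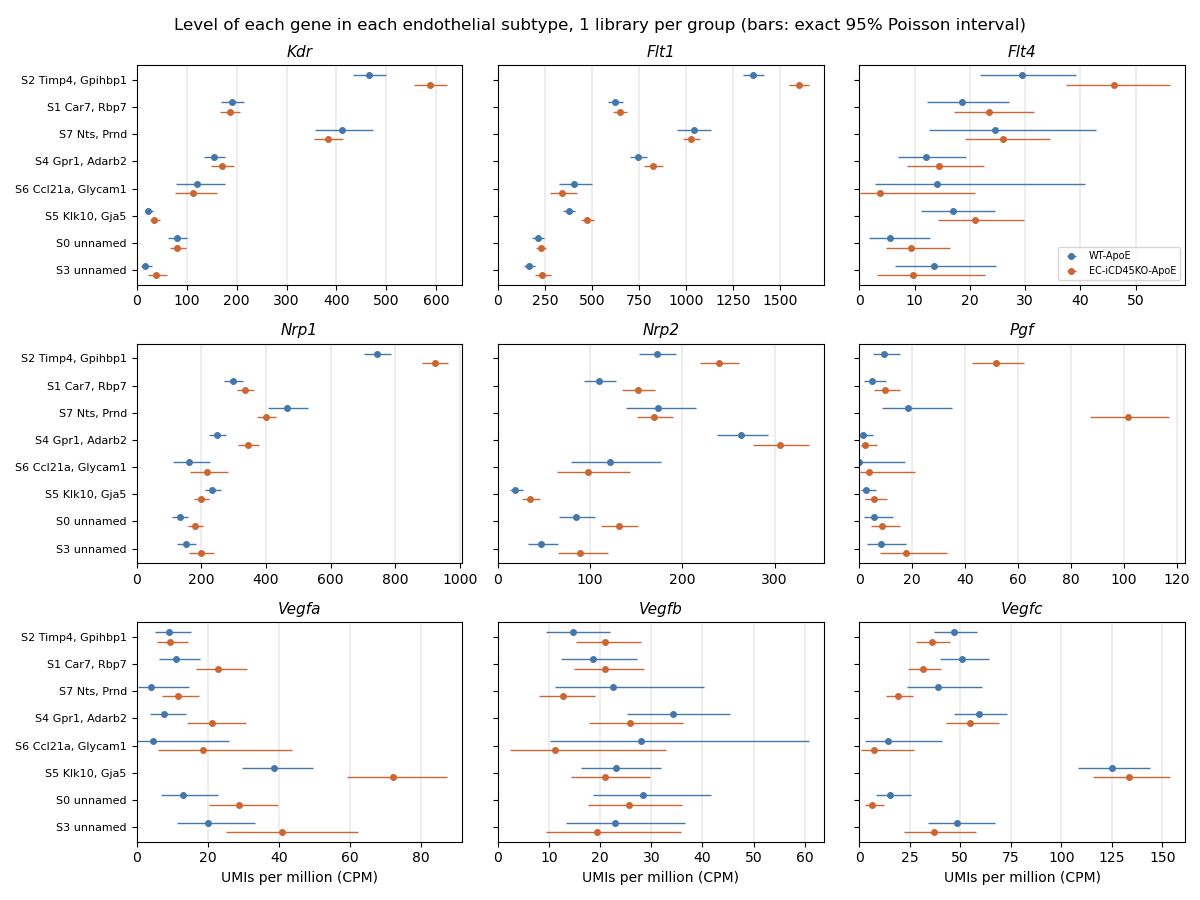
Level of each gene (CPM, linear axes that differ between panels) in the 8 endothelial subtypes, named at the left by leading genes, in WT-ApoE and EC-iCD45KO-ApoE, 1 library each; lines are exact 95% Poisson intervals. Kdr, Flt1 and Nrp1 peak in S2, Nrp2 in S4, and Vegfa and Vegfc in arterial S5.

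Between the libraries, all 5 receptors and neuropilins were modestly higher in EC-like cells of EC-iCD45KO-ApoE. The log2 ratio of EC-iCD45KO-ApoE to WT-ApoE was 0.43 (0.34 to 0.52) for Kdr, 0.29 (0.24 to 0.34) for Flt1, 0.45 (0.15 to 0.75) for Flt4, 0.30 (0.23 to 0.37) for Nrp1 and 0.42 (0.31 to 0.53) for Nrp2. Their median was 0.42, and that of the 10980 genes whose mean level reached 5 CPM was -0.01. The 12 endothelial markers had a median of 0.32, and 10 of 12 were higher in EC-iCD45KO-ApoE. Of the 5, 0 were past 2-fold, beside 1.55% of all genes tested that were at least 2-fold higher in EC-iCD45KO-ApoE and 3.46% that were at least 2-fold lower.

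These ratios were smaller when each subtype had equal weight in both libraries: Kdr was then 0.12, Flt1 0.13, Flt4 0.19, Nrp1 0.20 and Nrp2 0.30, with a median of 0.19. With S6 left out of this weighting the median was 0.18, Kdr 0.14, Flt1 0.16, Flt4 0.31, Nrp1 0.18 and Nrp2 0.37. Leaving out S7, S2, S6, or S0 and S3 from the summed UMIs gave medians from 0.33 to 0.43. As a mean of single-cell CPM, Kdr was 0.25. Within S2 Kdr was 0.34 (0.21 to 0.47) higher, within S1 it was -0.04 (-0.27 to 0.19) and within S7 -0.10 (-0.33 to 0.13). Nrp2 was higher in EC-iCD45KO-ApoE with an interval above 0 in S0, S1, S2, S3, S4 and S5, from 0.21 (0.0036 to 0.42) in S4, where it peaked, to 0.93 (0.26 to 1.60) in S3. Nrp1 was higher in S2, by 0.31 (0.21 to 0.41), and lower in arterial S5, at -0.24 (-0.47 to -0.02). It was also higher in S4 (249 and 345 CPM), S0 (134 and 181 CPM), S3 (153 and 198 CPM) and S1 (299 and 336 CPM). In these subtypes the summed macrophage markers, given next, were higher too. In S7 Nrp1 was lower, at 464 and 402 CPM. The summed macrophage markers moved the other way from Kdr, Nrp1 and Nrp2 in S2, at 1867 CPM in WT-ApoE and 1403 CPM in EC-iCD45KO-ApoE, but were higher in EC-iCD45KO-ApoE, as Nrp2 was, in S0 (4299 and 8351 CPM), S1 (3031 and 4464 CPM), S3 (3391 and 6639 CPM), S4 (1483 and 2178 CPM) and S5 (965 and 1538 CPM).

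The ligands did not move as a group. Pgf was the only 1 of the 9 genes past 2-fold, with 48 UMIs in WT-ApoE and 345 in EC-iCD45KO-ApoE and a log2 ratio of 2.50 (2.07 to 2.97), beside the 1.55% of all genes given above. Vegfa was 0.73 (0.43 to 1.04) higher. With equal weights for the subtypes Vegfa was 1.05 higher and Pgf 2.00. Vegfc was lower, at -0.45 (-0.63 to -0.26), and -0.70 as a mean of single-cell CPM, and Vegfb differed by -0.19 (-0.47 to 0.10), an interval that includes 0. Within arterial S5, where Vegfc was highest, it differed by 0.09 (-0.20 to 0.39). Vegfa was higher in S5 by 0.90 (0.43 to 1.37) and in S1 by 1.06 (0.20 to 1.99), while S2 showed 0.01 (-1.02 to 1.08). The summed monocyte markers, 5 genes whose own class had the most Vegfa, were 199.7 and 179 CPM in EC-like cells, with 3 of 5 higher in EC-iCD45KO-ApoE. The summed neutrophil markers were 67.4 and 183 CPM, with 4 of 5 higher.

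**Figure D3:**
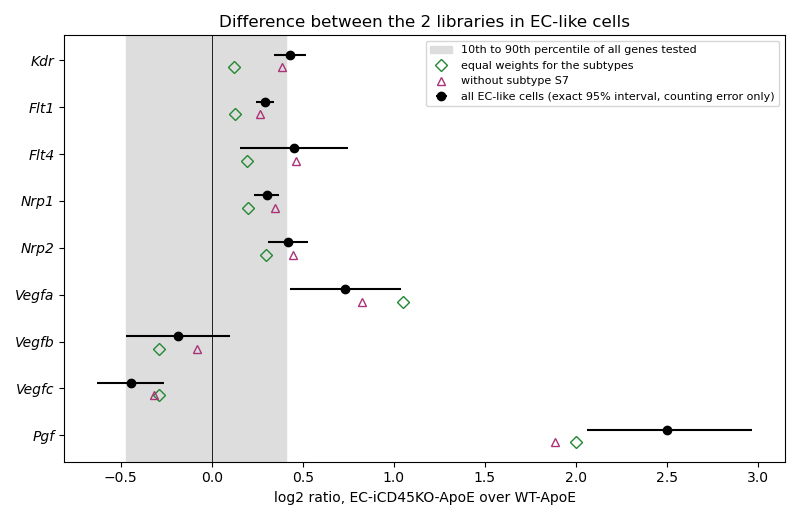
Log2 ratio of EC-iCD45KO-ApoE over WT-ApoE for the 9 genes in EC-like cells; black points carry exact 95% intervals for counting error, diamonds weight the 8 subtypes equally, triangles leave out subtype S7, and the grey band spans the 10th to 90th percentile of all 10980 genes tested. Pgf stands at 2.50, and 1.89 without S7, whereas Kdr moves from 0.43 to 0.12 with equal weights.

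Most of the EC-like Pgf UMIs of EC-iCD45KO-ApoE lay in few cells of S7 and S2. In S7 Pgf stood at 18.4 CPM (8.42 to 34.9) in WT-ApoE and 101 CPM (87.3 to 117) in EC-iCD45KO-ApoE, and in capillary S2 at 9.22 CPM (5.16 to 15.2) and 51.7 CPM (42.5 to 62.2). The log2 ratios were 2.46 (1.5 to 3.61) in S7 and 2.49 (1.70 to 3.37) in S2, where 4.62% and 2.27% of all genes were at least 2-fold higher. In the other subtypes Pgf had 0 to 18 UMIs per library. It was also higher in EC-iCD45KO-ApoE in S1 (4.83 and 9.62 CPM), S3 (8.06 and 17.5 CPM), S0 (5.47 and 8.57 CPM), S5 (2.50 and 5.40 CPM) and S4 (1.42 and 2.28 CPM), with intervals of the log2 ratio that include 0 in each of these 5. In EC-iCD45KO-ApoE, S7 held 53.3% of the EC-like Pgf UMIs in 4.73% of the EC-like cells, and S2 held 32.2% in 12.2%. The summed macrophage markers were lower in EC-iCD45KO-ApoE in both, at 978 and 675 CPM in S7 and at the S2 values given above. The summed SMC markers were lower in S7, at 979.8 and 665 CPM, but higher in S2, at 153 and 325 CPM, and over all EC-like cells they were 598 and 767 CPM with 7 of 7 higher. In SMC-like cells, which had less Pgf than S2 and S7 of EC-iCD45KO-ApoE, these markers stood at 14731 and 23829 CPM. The summed pericyte markers stood at 115 and 28.7 CPM in S7 and at 67.6 and 84.7 CPM in S2. The part of SMC and pericyte RNA in the Pgf difference was not tested.

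Pgf was detected in 32 EC-like cells of WT-ApoE and 104 of EC-iCD45KO-ApoE. The 10 cells with the most Pgf held 54.2% of its UMIs in WT-ApoE and 51.0% in EC-iCD45KO-ApoE, where a single cell had 38. For Kdr the same share was 7.67% and 7.04%. After each cell was thinned to 1000 UMIs, 0.484% (0.258 to 0.827) of EC-like cells in WT-ApoE and 1.36% (0.967 to 1.85) in EC-iCD45KO-ApoE had a Pgf UMI, the unthinned shares being 0.799% and 2.32%. Without S7 the log2 ratio over EC-like cells was 1.89, and as a mean of single-cell CPM it was 1.82. Both values are still past 2-fold.

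Pgf was not alone in S7. Esm1, a secreted proteoglycan of endothelial tip cells, stood at 16.4 CPM (7.07 to 32.2) and 77.7 CPM (65.4 to 91.6) there, and Apln, the ligand of the apelin receptor, at 8.18 CPM (2.23 to 20.9) and 62.3 CPM (51.3 to 74.9). Angpt2, a Tie2 ligand that loosens vessels, stood at 51.1 CPM (33.1 to 75.5) and 92.6 CPM (79.1 to 108). Aplnr, the apelin receptor, was alike in S7 at 174 and 166 CPM but differed in venous S4, at 64.1 CPM (51.5 to 78.7) and 166 CPM (144 to 189). Esm1 was among the 10 leading genes of S7 and Apln among its leading endothelial genes, although neither was used to form it. Esm1 and Apln are named here after their values were seen.

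**Figure D4:**
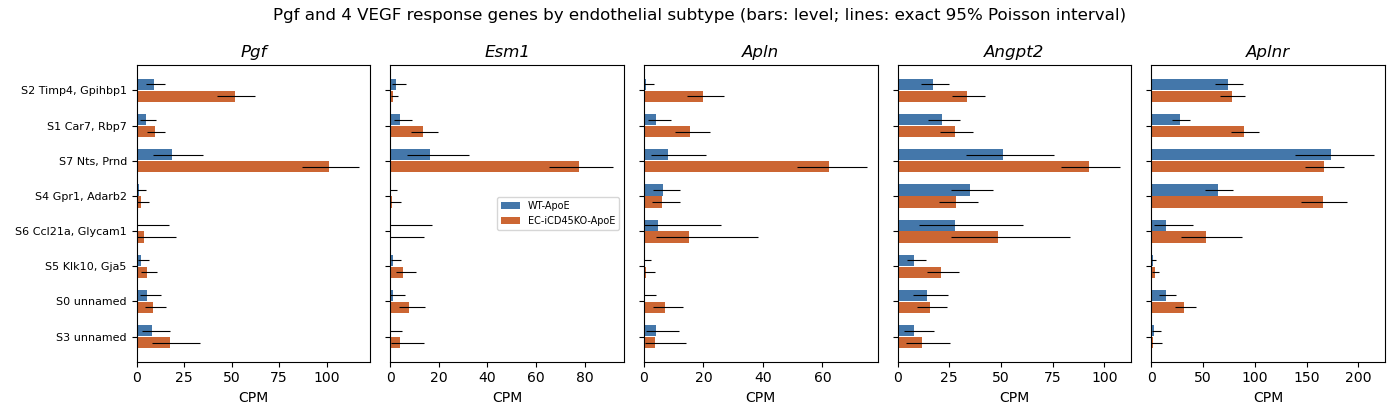
Levels (CPM, bars from 0, axes that differ between panels) of Pgf and 4 VEGF response genes in the 8 endothelial subtypes of WT-ApoE and EC-iCD45KO-ApoE, 1 library each; lines are exact 95% Poisson intervals. Pgf, Esm1 and Apln are highest in S7 of EC-iCD45KO-ApoE, at 101, 77.7 and 62.3 CPM, and Aplnr in S4 stands at 64.1 and 166 CPM.

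The wider pathway was read from 4 lists. Of the VEGF response and tip cell genes, 18 of 18 passed the minimum level in EC-like cells, 3 were at least 2-fold higher in EC-iCD45KO-ApoE and 0 lower, beside 1.55% and 3.46% of all genes. The 3 were Esm1, with 21 and 189 UMIs (2.49 and 17.7 CPM), Apln, with 24 and 209 UMIs (2.84 and 19.5 CPM), and Aplnr, at 42.0 and 85.6 CPM. Esm1 and Apln were under 5 CPM in WT-ApoE and reached the minimum mean only through EC-iCD45KO-ApoE, so the count is a description that the minimum level favours. The median of the list was 0.42. Angpt2 was at 20.3 and 37.3 CPM, a log2 ratio of 0.88 (0.62 to 1.15), while Cxcr4, a chemokine receptor also abundant in leukocytes, was at 35.3 and 24.3 CPM (-0.54, -0.78 to -0.29) and Egr3, an early response transcription factor, at 31.4 and 20.2 CPM (-0.64, -0.90 to -0.37). The B cell and T cell markers given above were lower in the same direction as Cxcr4 and Egr3.

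In the other 3 lists, no gene with a mean of at least 5 CPM was past 2-fold in either direction. Below that level, and named after its values were seen, Sh2d2a, which encodes a T cell adaptor that also binds Kdr, stood at 54 and 6 UMIs (6.40 and 0.561 CPM), beside T and NK cell markers of 256 and 38.1 CPM. The semaphorins Sema3b, with 6 and 18 UMIs, and Sema3e, with 12 and 7 UMIs, were also below it. Of the neuropilin ligands and plexins 7 of 12 were tested, with a median of 0.34: Plxnd1, the semaphorin receptor of endothelial cells, was at 75.1 and 109 CPM (0.54, 0.40 to 0.68), the secreted semaphorin Sema3f at 29.7 and 37.9 CPM (0.35, 0.12 to 0.58), Sema3g at 726 and 999 UMIs (0.12, -0.02 to 0.26) and Plxna4 at 119.6 and 107 CPM (-0.16, -0.28 to -0.04). Of the receptor modifiers and effectors 13 of 18 were tested, with a median of 0.14. Among them the guanine exchange factor gene Vav3 stood at 111 and 141 CPM (0.35, 0.23 to 0.46), the kinase gene Akt1 at 65.0 and 82.2 CPM (0.34, 0.18 to 0.49), Ptprb, the endothelial phosphatase VE-PTP that restrains Kdr, at 752 and 686 CPM (-0.13, -0.18 to -0.08), and Ptpn6, a leukocyte phosphatase, at 76.8 and 47.9 CPM (-0.68, -0.85 to -0.51). Of the hypoxia-inducible factor (HIF) genes 15 of 16 were tested, with a median of 0.26. Ankrd37 at 22.4 and 37.6 CPM (0.75, 0.49 to 1.0) and Bnip3 at 22.7 and 33.2 CPM (0.55, 0.29 to 0.81), both HIF targets, were the highest of those with a mean of at least 20 CPM, and Pfkfb3, a glycolytic regulator, at 52.7 and 43.7 CPM (-0.27, -0.46 to -0.08) and Arnt, the HIF partner subunit, at 58.8 and 47.7 CPM (-0.30, -0.48 to -0.12) the lowest.

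Outside the blood endothelium, Vegfa was higher in EC-iCD45KO-ApoE in several myeloid classes, but not only there. Plasma-like, lymphatic EC-like and T/NK-like cells also had Vegfa at least 2-fold higher, from 33, 4 and 44 UMIs in WT-ApoE. In these classes 19.2%, 7.69% and 5.9% of all genes were at least 2-fold higher. Over all kept cells, whose mix of classes differed between the libraries, Vegfa stood at 13.4 and 35.9 CPM. In monocyte-like cells, its main source, the log2 ratio was 0.62 (0.43 to 0.81), a value that ranged from 0.28 as a mean of single-cell CPM to 1.03 with finer clusters. Macrophage-like cells had 4.60 CPM (3.29 to 6.27) in WT-ApoE and 16.4 CPM (14.8 to 18.0) in EC-iCD45KO-ApoE, a log2 ratio of 1.83 (1.36 to 2.34), where 0.855% of all genes were at least 2-fold higher. Vegfa was under 5 CPM in WT-ApoE there and reached the minimum mean only through EC-iCD45KO-ApoE, which favours such a call. The same holds for T/NK-like cells, with 44 Vegfa UMIs in WT-ApoE. Neutrophil-like cells showed 1.43 (0.73 to 2.20) and dendritic-like cells 1.13 (0.62 to 1.67), beside 5.18% and 2.71% of all genes at least 2-fold higher. Fibroblast-like cells showed 0.35 (-0.05 to 0.76), an interval that includes 0. Monocyte-like cells, with their high Vegfa, were 994 in WT-ApoE and 2542 in EC-iCD45KO-ApoE. The summed monocyte markers were higher in macrophage-like cells of EC-iCD45KO-ApoE, at 90.7 and 154 CPM with 3 of 5 higher, and so were the neutrophil markers, at 39.9 and 67.2 CPM with 5 of 5 higher. In dendritic-like cells the monocyte markers stood at 815 and 798 CPM and in neutrophil-like cells at 689.9 and 363 CPM, against 2126 and 1283 CPM in monocyte-like cells. In dendritic-like cells the neutrophil markers stood at 20.3 and 119 CPM. The part of monocyte and neutrophil RNA in these values was not tested.

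Pgf was also higher in other classes, though at low counts and in classes whose clusters differed in proportion. SMC-like cells had 90 and 271 UMIs, a log2 ratio of 0.85 (0.51 to 1.22). Within their cluster led by Vcam1 and Wnt16 (671 and 698 cells) Pgf stood at 10.5 CPM (8.05 to 13.4) and 21.8 CPM (18.7 to 25.2), whereas in the cluster led by Cnn1 and Itga8 (898 and 2551 cells) the intervals overlapped, at 16.9 CPM (11.2 to 24.6) and 20.7 CPM (16.7 to 25.4). Fibroblast-like cells had 7 and 34 UMIs (1.55, 0.35 to 2.97). Their cluster led by Saa3 and Ccl19 had 658 and 1763 cells and the cluster led by Inmt and C7 had 1370 and 781. Lymphatic EC-like cells showed 0.11 (-0.94 to 1.18). In lymphatic EC-like cells Flt4 had 91 and 155 UMIs, a log2 ratio of 0.71 (0.33 to 1.10), and Flt1 34 and 55 UMIs, a ratio near that of Flt4 but with an interval that just includes 0 (0.64, -0.0043 to 1.30). The intervals of Kdr (0.17, -0.20 to 0.53), Nrp1 (-0.0049, -0.81 to 0.80) and Nrp2 (-0.16, -0.57 to 0.26) also include 0. Vegfa, with only 4 UMIs in WT-ApoE, was the 1 member past 2-fold in lymphatic EC-like cells. The make-up of the class differed beside these values: the summed lymphatic markers stood at 12418 and 18000.1 CPM with 5 of 6 higher, the fibroblast markers at 1647 and 446 CPM with 0 of 7 higher, and the macrophage markers at 1399 and 3307 CPM with 7 of 7 higher. Its part in the Flt4, Flt1 and Vegfa values was not tested. Nrp1 in fibroblast-like cells was -0.19 (-0.33 to -0.05) from summed UMIs but 0.059 as a mean of single-cell CPM, so its direction depended on the weighting of cells. In the Saa3 and Ccl19 cluster Nrp1 stood at 208 CPM (190.2 to 227) and 157 CPM (147 to 167), and in the Inmt and C7 cluster at 127 CPM (110.3 to 146) and 136 CPM (112 to 163).

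Most EC-like cells had no UMI of Kdr or Nrp1 after thinning, and the cells with both lay mainly in S2. After thinning to 1000 UMIs, 39.3% (37.5 to 41.2) of EC-like cells in WT-ApoE and 43.2% (41.4 to 45.1) in EC-iCD45KO-ApoE had a Flt1 UMI, 14.9% (13.5 to 16.3) and 17.4% (16.1 to 18.9) a Kdr UMI, and 24.2% (22.6 to 25.9) and 28.7% (27.1 to 30.4) an Nrp1 UMI. The unthinned shares were 46.7% and 49.0% for Flt1, 22.0% and 24.0% for Kdr and 33.9% and 37.4% for Nrp1. In B-like cells, the background, 0.480% and 0.322% had a Flt1 UMI. A Kdr UMI was found in 0.406% and an Nrp1 UMI in 0.517% of B-like cells in WT-ApoE, and each in 0 of 311 cells in EC-iCD45KO-ApoE, which allows a share of cells with a UMI of up to 0.965% (3 of the 311 cells). These B-like cells had median depths of 2013.5 and 2560.5 UMIs against 1320 and 1269 in EC-like cells. Kdr and Nrp1 were found in the same cell in 5.96% (5.10 to 6.92) and 8.32% (7.34 to 9.39) of EC-like cells, where the product of their shares is 3.60% and 5.01%. Neither gene was found in 66.9% and 62.2%. In the capillary groups the share with both was nearer to the product: 21.7% (18.1 to 25.7) against 19.6% in S2 of WT-ApoE, 28.2% (24.4 to 32.3) against 24.2% in S2 of EC-iCD45KO-ApoE, and 4.63% (3.04 to 6.71) against 3.64% and 4.59% (3.12 to 6.49) against 4.29% in S1. In S7 it was 17.7% (10.04 to 27.9) against 10.4% and 19.2% (14.1 to 25.3) against 14.8%, so in S7 of WT-ApoE the share with both was as far above the product, as a ratio, as over all EC-like cells. S2 held 102 of the 160 cells with both in WT-ApoE and 147 of the 239 in EC-iCD45KO-ApoE.

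Across 41 sums of cells (non-endothelial classes and endothelial subtypes with at least 50 cells, in each library), the genes most like each of the 9 were sought by Pearson r of log2(CPM + 5) among 7366 genes. These points share libraries and depth, and r is given as a description. Flt1 ran closest to Esam (r = 0.98), Adgrl4 and Tspan7 (both 0.97), and Kdr to Kank3 (0.96), Robo4 (0.95) and Unc45b (0.93). Flt4 ran closest to Klhl4 (0.94), Rassf9 and Galnt18 (both 0.90), Nrp1 to Apbb2 (0.91), Kitl and S100a13 (both 0.88), and Nrp2 to Rgl1 (0.87), Stard8 (0.85) and Pald1 (0.83). Among the ligands Vegfc had the closest partners, Lama3 (0.91), Ptprr and Mall (both 0.90), whereas Vegfa was nearest to Nrg1 (0.83), F10 (0.75) and Sgms2 (0.73), Vegfb to Fndc1 (0.79), Plce1 (0.78) and Tenm3 (0.76), and Pgf to Tpm4 (0.77), Unc5b (0.72) and Rsu1 (0.70). Between members, Kdr and Flt1 had r = 0.87 and Vegfc and Flt1 0.82, while Vegfa had r between -0.15 and 0.06 with the other 8.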

How the data were processed

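The data are 2 single-cell RNA-seq libraries, 1 per group. The deposited files hold whole-number UMI counts per gene and barcode, made by the authors with Cell Ranger 7.1.0 on mm10, per the submitters' processing notes. The annotation, intron counting and cell calling are not given in the sources used here. Barcodes needed 300 genes or more and a mitochondrial share of UMIs up to 10%, and 39503 and 28960 passed. Scrublet's own threshold (scanpy 1.11.5) marked 5 and 0 cells, so the top 10% of scores were removed per library, which left 35553 and 26064. Clustering (leidenalg 0.10.2 on a graph of shared neighbours, 2000 variable genes, 30 components, 20 neighbours, Leiden resolution 1) left out the 9 genes, Ptprc and the pathway lists. EC-like cells were clustered again on 300 variable genes out of 340 enriched in endothelium, with 10 components at resolution 0.4. The doublet rule, naming thresholds and second clustering were set after the data were seen.

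UMIs were summed per class and library and scaled to CPM. Intervals are exact 95% Poisson intervals for levels, exact conditional binomial intervals for log2 ratios and Clopper-Pearson intervals for shares, with 3 cells of the total as the limit beside a share of 0 in the B-like background, and cover counting error only. A gene counted as past 2-fold needed a mean of at least 5 CPM. Shares were taken after thinning to 1000 UMIs, which left 2684 and 2872 EC-like cells and dropped 1322 and 1611. All 9 genes are named; of each pathway list, the 2 highest and the 2 lowest log2 ratios with a mean of at least 20 CPM; and for likeness, the 3 genes with the highest r. The members and lists were chosen with earlier results of these data known. Gene positions come from GENCODE M21, which matched 32158 of 32285 identifiers. Ratio calculations were tested on simulated data. Alternatives covered the cell filter, doublets, cluster resolution, TMM scaling (edgeR 4.0.16), the genes in the total, cell weighting, subtype weights, thinning and the minimum level.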

Additional observations from a re-analysis of the deposited data

Results flagged for a closer look

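Cells that carried no class name, 10758 in WT-ApoE and 2698 in EC-iCD45KO-ApoE, are not among the classes compared in the report, although Pgf in 2 of their clusters is given among the other observations, and each of the 9 genes was higher in those of EC-iCD45KO-ApoE than in those of WT-ApoE. Among the receptors, Kdr stood at 40.1 CPM against 17.0, Flt1 at 130.4 CPM against 52.3 and Flt4 at 4.88 CPM against 2.48. Nrp1 stood at 138 CPM against 85.6, and Nrp2 at 82.6 CPM against 54.4. Of the ligands, Vegfa stood at 20.4 CPM against 12.7, Vegfb at 41.1 CPM against 27.5, Vegfc at 10.1 CPM against 7.28 and Pgf at 23.9 CPM against 4.06. The unnamed cells were not the same clusters in both libraries: a cluster led by Mia and Kap had 2001 cells in WT-ApoE, and a cluster led by S100g and Igfbp2 had 221 and 709 cells. The part of this make-up in the 9 differences was not tested.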

How the results depend on the processing

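With equal weights for the 8 EC-like subtypes, the median log2 ratio of the receptors and neuropilins was 0.19 instead of 0.42, and 0.18 with S6 left out of the weighting. Equal weights moved 6 of the 9 ratios and the mean of single-cell CPM 3, with values in the report. Of the 9 EC-like levels in EC-iCD45KO-ApoE, 3 moved without doublet removal and 3 with the stricter cell filter. In WT-ApoE these counts were 2 and 0. Of the 9 monocyte-like levels in EC-iCD45KO-ApoE, 4 moved with finer clusters, 4 with the stricter and 5 with the looser cell filter. Without a minimum level and with 0.5 CPM added, 1344 genes instead of 550 were past 2-fold in EC-like cells. As a mean of single-cell CPM, Nrp1 in fibroblast-like cells was 0.059 instead of -0.19. The cause was not tested in any of these. In EC-like cells Pgf ranged from 1.82 to 2.74 over all alternatives. Leaving out S7, S2, S6, or S0 and S3 was chosen after seeing the data. No paired analysis was possible because there is 1 library in each group. Depth limits Flt4, Pgf and Vegfa in EC-like cells, with 149, 48 and 134 UMIs in WT-ApoE, and the single library per group limits all ratios.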

Other observations

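Pgf had a further source outside the named classes. In an unnamed cluster led by Olfr558 and Higd1b, whose nearest markers were those of pericytes (69 and 86 cells), it stood at 85.5 CPM (56.8 to 124) in WT-ApoE and 84.4 CPM (63.6 to 110) in EC-iCD45KO-ApoE. In the unnamed cluster led by S100g and Igfbp2, Pgf stood at 5.80 and 42.4 CPM.

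Nrp1 divided the T/NK-like clusters. The cluster with Foxp3 and Ctla4, genes of regulatory T cells, had 155 and 191 CPM, and the cluster with Trdc and Il17a, genes of gamma delta T cells, had 135 and 112 CPM. The cluster with Lef1 and Dapl1, genes of naive T cells, had 10.7 and 33.1 CPM, from 36 and 6 UMIs.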
